A study of Mus musculus with 13 samples.

Results

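Connexins are the membrane proteins of gap junctions, the channels through which neighbouring cells exchange ions and small metabolites. Connexin subunits assemble into a hemichannel in one membrane, and docking with a hemichannel of the next cell forms the channel. Pannexins are related in shape but mostly stay undocked and release ATP to the outside of the cell. In the seminiferous tubule, gap junctions couple Sertoli cells to each other and to germ cells, and Cx43, the product of Gja1, is required in Sertoli cells for spermatogenesis to proceed. The 7 genes described here are the connexins Gja1, Gja4, Gja5, Gjc1 and Gjb2 and the pannexins Panx1 and Panx2. They were taken by their exact symbol from a count table with 27111 named genes. Expression level was not part of that rule, but earlier results of these data were known when the genes were chosen. Other connexin and pannexin genes, of which 15 are reported, served for comparison.

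Sertoli cells were enriched from the testes of adult wild-type C57Bl/6J males, 3 to 5 months old, by flow cytometry, keeping diploid, large cells with a high mitochondrial dye signal. The 7 MSUS males had undergone unpredictable separation from their mothers, 3 h daily between postnatal days 1 and 14, and during separation the mothers underwent a cold swim (18 °C, 5 min) or restraint (20 min). The 6 control males were left undisturbed, and no other treatment or allele was given to either group. Animals are named below by their number in the labels, and their litters were not analysed here.

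Libraries held 13087203 to 18649945 estimated reads in controls and 12701776 to 15693938 in MSUS, of which 20.7 to 26.7% fell on features with no gene name and were left out. The Sertoli markers, 9 of 9 of which were tested, summed to 12953 to 15990 CPM (reads scaled to library size) in controls and to 13097 to 15506 CPM in MSUS, as against 31.9 to 85.4 CPM for 6 Leydig markers and at most 3.26 CPM for 7 macrophage markers over both groups. Residual germ cell RNA was present and uneven, with 4 elongated spermatid markers at 846 to 1375 CPM in controls and 728 to 1772 CPM in MSUS. The 7 spermatocyte markers summed to 228 to 320 CPM in controls and 145 to 358 CPM in MSUS. All 7 were tested and 0 had a positive log2 fold change in MSUS. Of them, 1 was lower at an unadjusted p below 0.05 in limma, where 2.4% of all 14421 genes tested were. All 4 elongated spermatid markers had a positive log2 fold change, and 0 passed that limit. For 6 spermatogonia markers the sums were 191 to 243 and 177 to 262 CPM, and for 4 round spermatid markers 59.0 to 77.0 and 63.9 to 135 CPM. The spermatogonia sums were not spread evenly over their genes, of which only 3 were tested. Mean log2 CPM of the spermatogonia markers was 0.76 ± 0.21 (SD) in controls and 0.88 ± 0.30 in MSUS. For the spermatocyte markers it was 5.05 ± 0.18 and 4.79 ± 0.43. In such bulk samples, fewer cells of a type and less RNA per cell cannot be told apart.

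The order of the members was dominated by Gja1. On the log2 scale of CPM per kilobase of the longest coding transcript, the mean level in the 6 controls was 7.56 ± 0.07 (SD) for Gja1, 0.47 ± 0.52 for Gja4, -0.50 ± 0.70 for Gjc1, -1.77 ± 0.71 for Gjb2, -2.78 ± 1.08 for Gja5, -3.28 ± 0.63 for Panx2 and -3.71 ± 1.05 for Panx1. Gja1 thus supplied 98.7 ± 0.31% (SD, n = 6) of the summed CPM per kilobase of the 7 members in controls and 98.6 ± 0.21% (n = 7) in MSUS. Of the 7 members, 3 (Gja1, Gja4 and Gjc1) passed the filter on low counts and entered the comparison of MSUS with controls. The other 4 (Gja5, Gjb2, Panx1 and Panx2) were below it and are given by their reads. The order of Panx2 and Panx1 turned with the scale. As mean CPM per kilobase in controls, Panx1 stood at 0.0655 and Panx2 at 0.0595.

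Promoter sequences, from 250 bases before to 50 bases after the annotated start (RefSeq, GRCm38.p6), were found for 5 of the 7 members and for 13 of the 22 connexin and pannexin genes reported. Those of the 2 members with the highest level are shown, so that the gene that dominates can be seen beside the next one. The Gja1 window lies at chr10:56377050-56377349 on the plus strand and the Gja4 window at chr4:127313990-127314289 on the minus strand. Capitals mark a match to the AP-1 motif (TGAGTCA, or TGACTCA for the other strand) in Gja1 and to the GC box (GGGCGG, or CCGCCC) in Gja4.
Gja1: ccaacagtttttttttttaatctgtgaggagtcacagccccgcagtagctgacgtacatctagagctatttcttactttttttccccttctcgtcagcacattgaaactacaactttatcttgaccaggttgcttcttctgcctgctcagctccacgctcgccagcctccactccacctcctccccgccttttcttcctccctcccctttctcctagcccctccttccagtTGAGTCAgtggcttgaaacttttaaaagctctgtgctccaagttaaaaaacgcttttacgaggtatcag
Gja4: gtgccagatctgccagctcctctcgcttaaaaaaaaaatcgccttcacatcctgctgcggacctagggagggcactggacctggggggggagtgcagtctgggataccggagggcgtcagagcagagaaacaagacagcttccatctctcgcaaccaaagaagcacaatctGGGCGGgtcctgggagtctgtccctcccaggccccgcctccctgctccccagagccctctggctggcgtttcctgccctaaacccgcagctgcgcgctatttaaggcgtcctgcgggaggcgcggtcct
The match in the Gja1 window began 19 bases before the start, and that in the Gja4 window 79 bases before it. An AP-1 match was held by 5.20% of the 32851 promoter windows of this length, and a GC box by 35.7%. The Gja1 window had no GC box, neither window held the TATA box letters (TATAAA or TTTATA, in 13.6% of windows), and GC content was 47.7% for Gja1 and 62.0% for Gja4. These matches are letters in a window and say nothing about a factor binding there.

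Gja1, on chromosome 10 (GRCm38, 56377330 to 56402513, plus strand), encodes Cx43, the most widely expressed connexin, and its coding sequence lies in 1 exon. Its log2 CPM was 9.32, 9.13, 9.25, 9.19, 9.19 and 9.28 in controls 9, 10, 12, 14, 22 and 24. In MSUS males 1, 5, 6, 11, 13, 23 and 26 it was 9.23, 9.16, 9.17, 9.09, 9.20, 9.19 and 9.22. The groups overlapped: MSUS 11 was the lowest library and control 9 the highest, but control 10 lay below 6 of the 7 MSUS libraries. Between 5453 and 8253 estimated reads stood behind each value. The spread was narrow, with a coefficient of variation of CPM of 4.82% in controls and 3.16% in MSUS, against 1.17% and 1.25% from read counting alone.

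MSUS Sertoli cells did not differ detectably from controls in Gja1. The log2 fold change was -0.05 (SE 0.05, 95% confidence interval -0.15 to 0.05), with an adjusted p = 0.902 in limma over 14421 genes and an unadjusted p = 0.297. This interval is the tightest among the members, and its ends bound the size of a difference that these libraries leave possible. Across the members tested, 0 of 3 reached an unadjusted p below 0.05, where 5.42% of all 14421 genes did (3.02% higher and 2.4% lower in MSUS), and the smallest adjusted p of all genes was 0.878 in limma. With edgeR and DESeq2 the count of members below an unadjusted 0.05 was also 0. The median log2 fold change was -0.06 over the 3 members and -0.0017 over all genes tested.

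**Figure D1:**
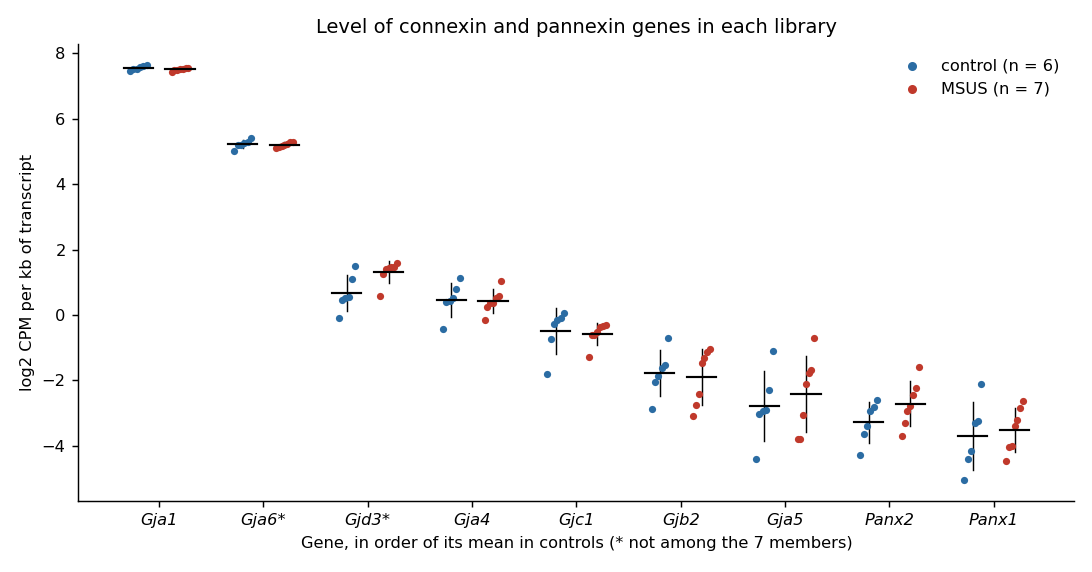
Level of connexin and pannexin genes in each library, in log2 CPM per kilobase of the longest coding transcript, for 6 control (blue) and 7 MSUS (red) males. Points are libraries, horizontal bars group means and vertical lines SD, and asterisks mark genes outside the 7 members. Gja1 sits near 7.56 in controls, 2.33 above Gja6 and 7.09 above Gja4, and the groups overlap for every gene shown.

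Gja4 encodes Cx37, known from the vascular endothelium and from oocytes. The gene lies on chromosome 4 (127311421 to 127314039, minus strand). Its estimated reads were 14 at the lowest, 23.5 at the median and 52 at the highest in controls (library 12 the lowest, library 10 the highest). In MSUS they were 15, 22 and 37 (library 5 the lowest, library 6 the highest). The groups covered nearly the same range, and the mean log2 CPM was 1.22 ± 0.52 (n = 6) in controls and 1.18 ± 0.36 (n = 7) in MSUS. The log2 fold change of Gja4 was -0.06 (SE 0.28, 95% confidence interval -0.66 to 0.54), with an adjusted p = 0.979 in limma.

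Gjc1 encodes Cx45, known from vascular smooth muscle and the conduction system of the heart. It lies on chromosome 11 (102799579 to 102819700, minus strand). It had 5, 19.5 and 29 estimated reads at the lowest, median and highest control (libraries 24 and 12 at the ends). In MSUS it had 9, 16 and 19 (libraries 1 and 5 at the ends). Control 24 was the lowest and control 12 the highest of all 13 libraries, so the MSUS values fell within the control range. Its mean log2 CPM was 0.71 ± 0.70 (n = 6) in controls and 0.64 ± 0.34 (n = 7) in MSUS. The log2 fold change of Gjc1 was -0.10 (SE 0.34, 95% confidence interval -0.81 to 0.61), with an adjusted p = 0.975 in limma.

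For Gja4 and Gjc1 the spread between libraries was set beside that of read counting. The coefficient of variation of CPM in controls was 35.5% for Gja4 and 40.4% for Gjc1, where counting alone gives 18.8% and 22.5%. In MSUS it was 27.8% for Gja4 and 22.5% for Gjc1, against 20.5% and 25.5% from counting. The spread thus exceeded that of counting in both groups for Gja4 and in controls for Gjc1, and did not exceed it for Gjc1 in MSUS.

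Within each control library, Gja1 exceeded Gja4 by 7.09 ± 0.56 (SD) in log2 CPM per kilobase, with a range of 6.32 to 8.0. The difference had the same direction in 6 of 6 controls (exact paired permutation test, two-sided, p = 0.03125, the smallest that 6 samples allow, adjusted p = 0.0938 over the 6 neighbouring pairs). With 6 controls no pair could reach an adjusted p below 0.05 by itself. Gja4 exceeded Gjc1 by 0.97 ± 1.00 in 5 of 6 controls (exact p = 0.0625, adjusted 0.125). Gjc1 exceeded Gjb2 by 1.28 ± 1.05 in 6 of 6 (exact p = 0.03125, adjusted 0.0938). Lower in the order, the neighbours did not differ beyond their spread: Gjb2 was above Gja5 by 1.01 ± 1.47 (exact p = 0.125), Gja5 above Panx2 by 0.50 ± 1.08 on average but in only 2 of 6 controls (exact p = 0.5), and Panx2 above Panx1 by 0.43 ± 1.11 (exact p = 0.4375), with adjusted values of 0.188, 0.5 and 0.5. By mean CPM per kilobase, not on the log2 scale, Panx1 was instead above Panx2 in controls (0.0655 against 0.0595). Gja5 and Panx2 had the same log2 CPM in controls 9, 10 and 14. The sign of their difference there came only from the transcript lengths, 3668 and 3391 bases. As a ratio of means, the level per kilobase of Gja1 was 139 times that of Gja4 and 272 times that of Gjc1 in controls, and 142 and 298 times in MSUS.

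The endothelial markers, which would accompany Gja4 and Gja5 from vessel wall, summed to 55.8 to 72.5 CPM in controls and to 57.7 to 77.4 CPM in MSUS. Of 12 such markers 5 were tested, and 6 of the 12 were at 0 in at least 1 library. Of the 5 tested, 1 (Tek) was higher in MSUS at an unadjusted p below 0.05 in limma. Over all 14421 genes tested, 3.02% were, and with 5 markers a count of 1 cannot be told from that share. The mean log2 CPM of all 12 markers, in place of their sum, served as a covariate. It was low, at 0.24 ± 0.31 (SD) in controls and 0.43 ± 0.21 in MSUS. With it, the log2 fold change of Gja4 was -0.14 and that of Gja5 0.84, and neither passed an unadjusted p of 0.05. Peritubular myoid markers, the smooth muscle of the tubule wall, ranged from 8.02 to 62.8 CPM in controls and from 11.5 to 92.6 CPM in MSUS. Their part in the level of Gjc1 was not tested.

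Gja5, on chromosome 3 (96904693 to 97077416, plus strand), encodes Cx40, a connexin of arterial endothelium and of the atrium. It had 0, 3.92 and 21.1 estimated reads at the lowest, median and highest control, and 1, 8.41 and 24 in MSUS. Control 22 and MSUS 1 stood far above the rest, and the groups overlapped. Of the 31-base words of its longest coding transcript, 21.9% also occur in Zfp697, a gene with 328 to 619 estimated reads per library, so that the assignment of reads to Gja5 is uncertain.

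Gjb2, on chromosome 14 (57098600 to 57104702, minus strand), encodes Cx26, a connexin of epithelia and of the cochlea. It had 2, 7 and 15 estimated reads at the lowest, median and highest control, and 1, 8 and 11 in MSUS. Both groups spanned almost all of this range. The 31-base words of its transcript are not shared with another gene.

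The pannexin genes lie on chromosome 9 (Panx1, 15002128 to 15045478, minus strand) and chromosome 15 (Panx2, 89059734 to 89073567, plus strand). Panx1, the broadly expressed pannexin, had 0, 3 and 15 estimated reads at the lowest, median and highest control and 1, 4 and 7 in MSUS. Panx2, which is known mainly from the nervous system, had 0, 2.5 and 5 in controls and 1, 3 and 11 in MSUS. In both, a single library (control 12 for Panx1, MSUS 1 for Panx2) held the highest value, and the remaining libraries overlapped. A count of 0 in control 9 or control 10 allows up to 0.260 or 0.204 CPM, which is 3 counts of the library's named reads. Floors of this kind cover counting error only.

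**Figure D2:**
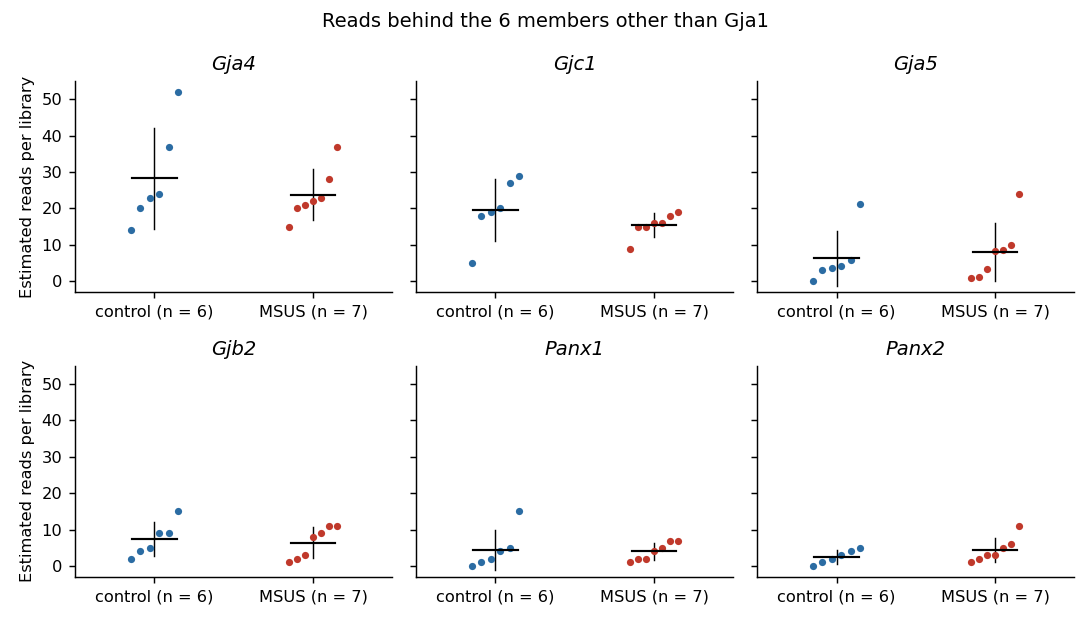
Estimated reads per library for the 6 members other than Gja1, with 6 control (blue) and 7 MSUS (red) libraries. Points are libraries, horizontal bars means and vertical lines SD. The highest value in the panels is 52 reads of Gja4 in control 10, and most libraries of Gjb2, Panx1 and Panx2 hold fewer than 10.

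In a fit without a filter on low counts, in which 4.99% of 23680 genes had an unadjusted p below 0.05, 0 of these 4 members did. The log2 fold change of Gja5 was 0.54 (SE 0.78, 95% confidence interval -1.11 to 2.19), and that of Gjb2 was -0.13 (SE 0.54, interval -1.28 to 1.01). For Panx1 it was 0.50 (SE 0.71, interval -0.99 to 1.99) and for Panx2 0.93 (SE 0.59, interval -0.32 to 2.18), with adjusted p = 0.945 and 0.929 in limma. The intervals span from a reduction to a more than 2-fold increase, so that a difference of moderate size was not detectable in these libraries. The coefficient of variation in controls was above that of counting for all 4, from 63.9% against 36.9% for Gjb2 to 113% against 47.1% for Panx1. The sign of the Panx1 value also turned with the test: it was -0.011 with edgeR and -0.0021 with DESeq2.

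**Figure D3:**
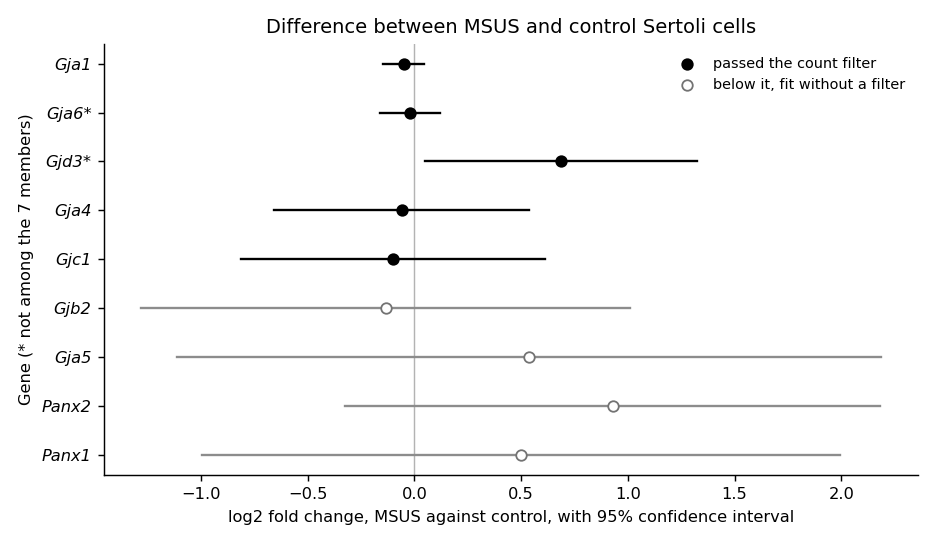
Log2 fold change of MSUS against control, with the 95% confidence interval, for the 7 members and 2 further connexins (asterisks). Filled points passed the filter on low counts, and open points come from the fit without it. The interval of Gja1 runs from -0.15 to 0.05, that of Panx2 from -0.32 to 2.18, and only that of Gjd3 lies wholly above 0.

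Among the 15 other connexin and pannexin genes reported, 2 passed the filter and had a mean of at least 10 reads per library, namely Gja6 and Gjd3. Gja6 encodes Cx33, a connexin known from the testis and able to hold back Cx43 channels. Its level was 5.23 ± 0.13 log2 CPM per kilobase in controls, second to Gja1 and above the 6 other members. It lies on the X chromosome, where unspliced reads of an overlapping transcript could be counted to it.

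Gja1 exceeded Gja6 by 2.33 ± 0.13 log2 CPM per kilobase, with a range of 2.12 to 2.46, in 6 of 6 controls (exact paired permutation test, p = 0.03125, adjusted 0.0625 over the 4 neighbouring pairs of Gja1, Gja6, Gjd3, Gja4 and Gjc1). The ratio of Gja1 to Gja6 per kilobase was 5.05 ± 0.44 in controls and 4.94 ± 0.19 in MSUS, with a range of 4.36 to 5.53 in controls and 4.67 to 5.16 in MSUS. Of the summed CPM per kilobase of these 22 genes, Gja1 held 81.6 ± 1.46% in controls and 81.0 ± 0.29% in MSUS, with control values from 79.0 to 83.1% and MSUS values from 80.6 to 81.4%. Gja6 held 16.2 ± 1.18% and 16.4 ± 0.59%. These values depend on the length given to Gja1, whose longest coding transcript has 3182 bases and whose 6 annotated coding transcripts have a median of 348. With median lengths, an alternative added after the data were seen, the ratio of Gja1 to Gja6 in controls was 46.2 ± 4.03 and the share of Gja1 97.6 ± 0.23%, and with no division by length 7.97 ± 0.69 and 87.6 ± 1.05%.

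Gja6 did not differ detectably with MSUS, with a log2 fold change of -0.02 (SE 0.07). Gjd3, a connexin of low level, had 6, 13.5 and 30 estimated reads at the lowest, median and highest control and 10, 23 and 28 in MSUS. The control values scattered over the whole range, while 6 of the 7 MSUS libraries held 20 reads or more. Its log2 fold change was 0.69 (SE 0.30, 95% confidence interval 0.05 to 1.32) with an unadjusted p = 0.0361 in limma and an adjusted p = 0.878, so it did not pass the adjusted test. The log2 fold change was 0.63 with edgeR (unadjusted p = 0.0557), 0.64 with DESeq2 (unadjusted p = 0.0524), 0.49 with the share of mitochondrially encoded counts as a covariate in limma (unadjusted p = 0.167) and 0.82 with endothelial markers as a covariate in limma (unadjusted p = 0.0215). Over all 25 alternatives it stayed between 0.49 and 0.88, and the lowest unadjusted p was 0.0117 in limma, without control 22. The unadjusted p was also above 0.05 when any one of MSUS 1, 6, 13 and 26 or controls 9, 10, 14 and 24 was left out (0.0521 to 0.0916). The mitochondrially encoded share was 1.26 to 2.48% in controls and 1.80 to 3.16% in MSUS.

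Across the 13 libraries, none of the 3 pairs of tested members had a correlation that passed the permutation test. Pearson's r of log2 CPM was -0.22 between Gja1 and Gja4 (permutation p = 0.465, Spearman's rho -0.16), -0.23 between Gja1 and Gjc1 (p = 0.441 by permutation, rho -0.09) and -0.28 between Gja4 and Gjc1 (p = 0.343 by permutation, rho -0.34). All 3 pairs had an adjusted permutation p of 0.465 for r, and for rho the permutation p was 0.592, 0.777 and 0.256 in the same order, or 0.777, 0.777 and 0.767 after adjustment. Without the 2 libraries farthest from the median, r was -0.45, -0.41 and -0.04 in the same order. Within controls r was -0.55, -0.15 and -0.35, and within MSUS 0.22, -0.67 and -0.15. Signs differed between the groups for Gja1 and Gja4, and reads as low as 5 enter the values of Gjc1.

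The genes whose log2 CPM followed Gja1 most closely over the 13 libraries, of 14420 others, were Marc2 (r = 0.91, rho = 0.85), Slc25a4 (r = 0.87, rho = 0.81) and Mettl8 (r = 0.87, rho = 0.95). Marc2 encodes a molybdenum enzyme of mitochondria, and Slc25a4 the mitochondrial carrier that exchanges ADP for ATP. With group means removed, r was 0.90, 0.84 and 0.86. These are the 3 highest of very many correlations over libraries that share their group and their scaling, and they are given as a description.

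Gja1 is anchored and turned over by partner proteins and is phosphorylated by many kinases. The partner list is reported in part, so no count of calls is given for it. The partners with the highest level were Nedd4, a ubiquitin ligase, at 6.56 log2 CPM per kilobase and Ctnnb1, the gene of beta-catenin, at 6.04. Their log2 fold changes were -0.04 and -0.01.

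A list of 11 kinases that phosphorylate Cx43 was tested, and 0 passed an unadjusted p of 0.05 in either direction in limma. Over all 14421 genes tested, 5.42% did, so a count of 0 among 11 is near that share. The median log2 fold change of these 11 was -0.0033. The highest were Mapk3, the gene of an ERK kinase, at 6.52 log2 CPM per kilobase and Prkaca, a catalytic subunit of protein kinase A, at 6.13. Their log2 fold changes were -0.09 and -0.0033.

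ATP that leaves a cell through hemichannels acts on purinergic receptors and is degraded to adenosine. Of 14 purinergic receptors of the P2rx and P2ry families, 4 were tested and 0 passed an unadjusted p of 0.05 in limma, where 5.42% of all 14421 genes did. P2rx2, an ATP-gated cation channel, stood at 7.45 log2 CPM per kilobase in controls, close to the 7.56 of Gja1 on this scale, and its log2 fold change was 0.01 (SE 0.08). The levels lay further apart with median transcript lengths, at 7.81 for P2rx2 and 10.75 for Gja1. P2rx4, a related channel, stood at 3.63. Of 10 ectoenzymes and adenosine receptors, 6 were tested and 0 passed an unadjusted p of 0.05 in limma, beside the same 5.42% of all genes. Adora1, an adenosine receptor, stood at 6.50 with a log2 fold change of -0.05 (SE 0.06). Of the 31-base words of its transcript, 0.26% occur in other genes on the same strand and 22.1% when both strands are counted. Nt5e, the ectonucleotidase that makes adenosine from AMP, stood at 5.21 with a log2 fold change of -0.12 (SE 0.06, unadjusted p = 0.0581, adjusted p = 0.878 in limma).

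**Figure D4:**
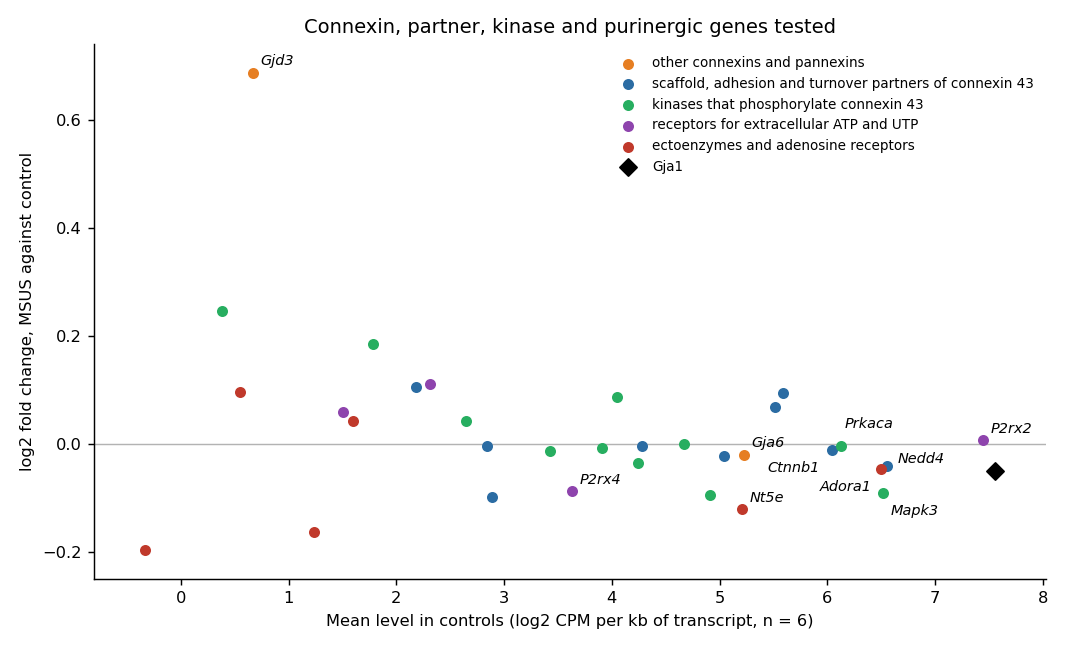
Log2 fold change of MSUS against control by mean level in controls (log2 CPM per kilobase, n = 6), for the genes tested and reported among the other connexins, Cx43 partners and kinases, purinergic receptors and ectoenzymes. Each point is a gene, coloured by list, and the diamond is Gja1. P2rx2 at 7.45 is the nearest in level to Gja1 at 7.56, and Gjd3 at a log2 fold change of 0.69 is the farthest from 0.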

How the data were processed

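RNA of FACS-enriched Sertoli cells (5 ng) was made into libraries with a stranded total RNA kit (12 PCR cycles) and sequenced single end. The deposited values are estimated counts per gene, which the authors made with Trim Galore 0.6.5 and Salmon 1.1.0 on a GENCODE M23 index (GRCm38). They were rounded here. Genes were filtered with filterByExpr, scaled by TMM and tested with limma voom (limma 3.58.1, edgeR 4.0.16, R 4.3.3), MSUS against control with no covariate, two-sided, with Benjamini-Hochberg adjustment over 14421 genes. Expression levels (log2 CPM, prior count 2) were divided by the longest coding transcript of GENCODE M21. The alternatives included DESeq2 1.42.0 and the quasi-likelihood test of edgeR. The scripts were tested on simulated data. No 2 of the 78 library pairs agreed within counting noise (6.04 or more chi-square per gene). Labels do not state separate cultures or litters, so p-values measure the spread between these samples. Features without a name (20.7 to 26.7% of counts) were left out. Genes named in the text were the 7 members, listed genes with an unadjusted p below 0.05, the highest 2 of each list, other family genes with a mean of 10 reads and the 3 genes most correlated with Gja1. Some genes that this rule names are not reported here, and summed family levels and pair adjustments leave them out. Members and lists were chosen with earlier results of these data known.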

Additional observations from a re-analysis of the deposited data

Results flagged for a closer look

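Among 36 groups of values searched for a library far from its group, 2 passed Dixon's 95% limit, where chance gives about 1 in 20 or 1.8 here. Gjc1 in MSUS library 1 stood at -0.071 log2 CPM (9 estimated reads), below the other 6 MSUS libraries at 0.60 to 0.92. Without that library, the log2 fold change of Gjc1 was 0.04 in place of -0.10. Gjd3 in MSUS library 23 stood at 0.32 log2 CPM (10 estimated reads), below the others at 0.99 to 1.34. Both rest on few reads, and their cause was not tested.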

How the results depend on the processing

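In 25 alternatives 0 members had an unadjusted p below 0.05. Over all genes, 781 such calls became 1182 without a filter, 1205 with elongated spermatid markers and 403 with the mitochondrially encoded share as covariate, and 534 to 1121 with a library left out. Gja1 stood above the next member by 7.09, by 10.28 with median transcript lengths, by 8.0 without length and by 6.90 to 7.24 with a control left out. Signs turned, with the cause not tested, for Panx1 (-0.011 with edgeR, -0.0021 with DESeq2), for Gja4 (0.039) with sample weights, for Gjb2 (0.017) and Gja6 (0.0048) with spermatid markers, and for Gja6 (0.015) with the mitochondrial share. With a library left out, log2 fold changes ran from -0.07 to -0.03 for Gja1, -0.27 to 0.11 for Gja4, -0.36 to 0.037 for Gjc1, -0.050 to 1.00 for Gja5, -0.45 to 0.12 for Gjb2, -0.088 to 0.95 for Panx1, 0.50 to 1.17 for Panx2, -0.064 to 0.017 for Gja6 and 0.54 to 0.88 for Gjd3, which lost its unadjusted p below 0.05 in 11 of 25 alternatives. No paired analysis was possible because the animal numbers in the labels are not shared between the groups. Gja5, Gjb2, Panx1 and Panx2 had the fewest reads of the members, and also a spread between libraries above that of counting.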
